A study of Mus musculus with 5 samples.

Results

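The genes described here are the Wnt ligands, their receptors and the proteins that modulate or transmit the signal, followed in the embryonic medial ganglionic eminence (MGE) with and without the homeodomain factors Dlx1 and Dlx2. They were taken by symbol: every Wnt, Frizzled (Fzd), Sfrp1 to Sfrp5, Dkk1 to Dkk4, Rspo1 to Rspo4, Axin1, Axin2, Lef1, Tcf7, Tcf7l1, Tcf7l2, Lrp5 and Lrp6 with a probe set assigned to that symbol alone, and the brightest probe set stood for the gene. This gave 49 of the 18193 genes named on the array. They comprise 19 ligands, 12 receptors (Fzd1 to Fzd10, Lrp5 and Lrp6), 8 secreted inhibitors, 4 R-spondins, 2 scaffold proteins of the destruction complex and 3 nuclear factors. The remaining 1 is Fzd10os, which the symbol rule takes in but which RefSeq lists as a noncoding RNA antisense to Fzd10. Tcf7 had no probe set of its own and was not analysed here.

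RNA came from 5 mouse samples, each on 1 Affymetrix array, all from the rostral MGE at E15.5 (embryonic age in days). The ventricular and subventricular zones were either taken as tissue (1 wild-type, WT, array and 2 Dlx1/2 mutant arrays) or grown as primary neuronal cultures (1 WT and 1 mutant array). The labels name the mutant only as Dlx1/2 mutant, and give neither the alleles, the time in culture nor the number of embryos behind an array. Nor do they state if separate embryos gave the 2 arrays of mutant tissue, so p-values in tissue measure only a spread among arrays that may be technical. In the fits over both preparations the error also holds the departure of the single arrays from equal genotype effects in tissue and culture. Over all genes tested, those 2 arrays differed with an SD of 0.324 (log2). No other group was replicated, so no test holds a measured spread within WT tissue or within either culture.

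Wnt proteins are secreted lipid-modified ligands that bind a Frizzled receptor together with Lrp5 or Lrp6. In the canonical branch this disables the complex built on Axin that marks beta-catenin for destruction, and beta-catenin then joins Lef1 or a Tcf protein on target genes. Dkk and Sfrp proteins act outside the cell to limit the signal, and R-spondins amplify it. In the developing forebrain the pathway is known for its role in dorsal patterning, in the thalamus and in the balance between division and differentiation of progenitors.

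Values are given as log2 of the quantile-normalized signal, with everything under a signal of 5.15 (log2 2.36) set to that floor. A gene was tested if its mean over the 5 arrays exceeded 4.80, a signal of 27.8, the median over all probe sets, named or not. By this filter 26 of the 49 members were tested, among 11063 genes in all: 4 of 19 ligands, 10 of 12 receptors, 6 of 8 secreted inhibitors, 0 of 4 R-spondins, both Axins, all 3 nuclear factors and Fzd10os. The filter keeps a gene that is bright in a single group, so counts over the 26 describe the members that passed it and not the module. In 15 members at least 1 array lay at the floor (10 ligands, 4 R-spondins and 1 secreted inhibitor), and none was at the floor in all 5.

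**Figure D1:**
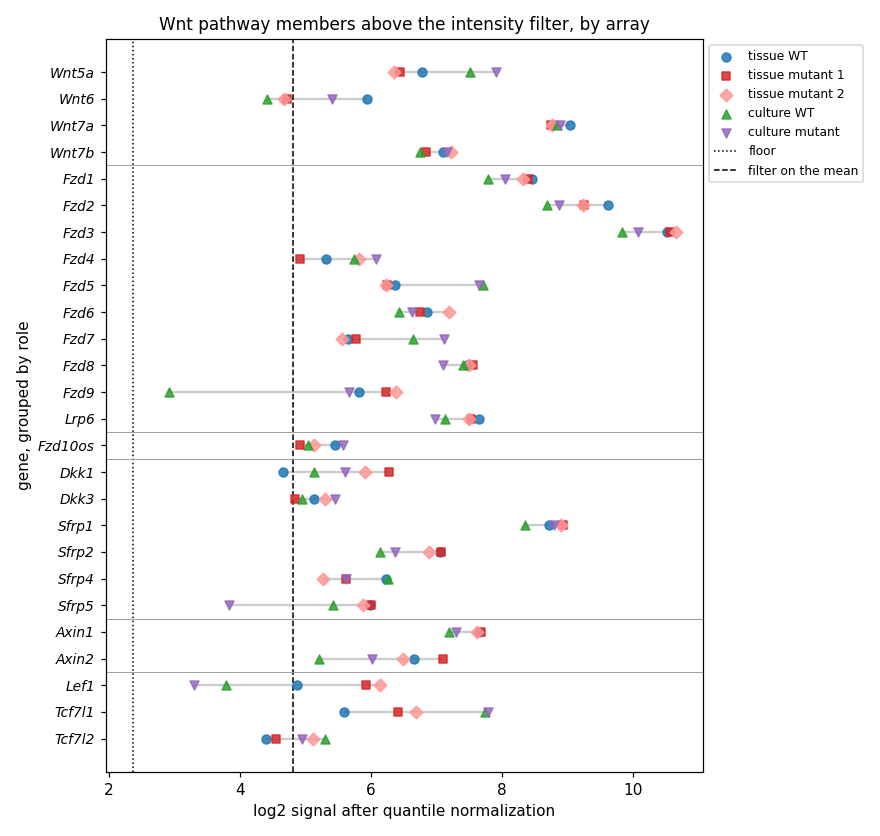
Log2 signal after quantile normalization (x axis) of the 26 members that passed the filter, 1 row per gene grouped by role, with 1 symbol for each of the 5 arrays; grey lines join a gene's lowest and highest array, the dotted line is the floor and the dashed line the filter on the mean. Fzd3 lay between 9.83 and 10.65 in every array, whereas Lef1 ran from 3.30 in mutant culture to 6.14 in mutant tissue and Fzd9 dropped to 2.92 in WT culture.

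The first comparison is between mutant and WT tissue, where 3 members were higher and 1 was lower in the mutant, by limma with Benjamini-Hochberg adjustment over all genes tested and a threshold of 0.05. The 3 that rose were Dkk1, a secreted antagonist that binds Lrp5 and Lrp6, and the DNA-binding partners of beta-catenin Lef1 and Tcf7l1. The receptor gene Fzd2 fell. These 4 calls are 15.4% of the 26 members, against 15.3% of all 11063 genes (8.59% higher and 6.7% lower), so the share of members called was close to the share of all genes. The median difference over the 26 was -0.03, with 12 above 0, and over all genes it was 0.

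The promoters of the 3 genes that rose are printed because 2 of these genes, Lef1 and Dkk1, are themselves known Wnt targets. RefSeq (GRCm38.p6) windows from 250 bases before to 50 bases after an annotated start matched 31 of the 49 members, 38 windows in all, and Lef1 had 4, of which the most upstream is printed. The letters CTTTGAA or CTTTGAT, the core bound by Lef1 and Tcf proteins, were searched on both strands and are in capitals where found. Each window is written 5′ to 3′ on the strand of its gene: Dkk1 is chr19:30549447-30549746 on the minus strand, Lef1 is chr3:131110047-131110346 on the plus strand and Tcf7l1 is chr6:72788996-72789295 on the minus strand.
Dkk1: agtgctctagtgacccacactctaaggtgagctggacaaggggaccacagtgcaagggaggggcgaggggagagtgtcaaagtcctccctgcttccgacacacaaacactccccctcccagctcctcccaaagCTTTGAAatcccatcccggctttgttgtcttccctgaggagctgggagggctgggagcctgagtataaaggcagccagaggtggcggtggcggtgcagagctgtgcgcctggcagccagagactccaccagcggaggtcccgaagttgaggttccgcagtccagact
Lef1: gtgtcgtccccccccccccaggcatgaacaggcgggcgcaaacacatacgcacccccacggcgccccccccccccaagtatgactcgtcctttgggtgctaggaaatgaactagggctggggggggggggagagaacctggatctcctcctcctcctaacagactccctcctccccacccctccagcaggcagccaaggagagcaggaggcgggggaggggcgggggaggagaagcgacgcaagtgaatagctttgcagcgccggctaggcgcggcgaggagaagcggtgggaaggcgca
Tcf7l1: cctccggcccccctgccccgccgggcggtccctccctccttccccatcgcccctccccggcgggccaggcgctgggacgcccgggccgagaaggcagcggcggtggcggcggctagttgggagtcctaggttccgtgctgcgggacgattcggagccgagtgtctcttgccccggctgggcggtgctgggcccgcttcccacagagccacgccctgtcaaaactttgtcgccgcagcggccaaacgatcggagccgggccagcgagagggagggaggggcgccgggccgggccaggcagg
The Dkk1 window holds CTTTGAA, which begins at base -117 counted from the start, and the Lef1 and Tcf7l1 windows printed hold neither form. Over all member windows the motif was in 3 of 38 (7.89%; Dkk1, Wnt11 and Wnt5b), against 8.65% of 32851 windows of all genes. The homeodomain core TAATTA, which is its own reverse complement, was in 1 member window (2.63%, Wnt8b) against 5.29% of all. Member windows were richer in G and C, with a median of 68.2% against 52.7%, and held a median of 26.5 CpG against 7. A match of letters is not evidence of binding.

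Dkk1 measured 4.65 in WT and 6.27 and 5.90 in mutant tissue, against 5.13 in WT and 5.60 in mutant culture. Both mutant tissue arrays lay above every other array, and the mutant culture lay above the WT culture by 0.47. In tissue the mutant was 2.71-fold higher (log2 1.44 ± 0.34 SE; adjusted p = 0.015, limma), with a mean of 6.08 ± 0.26 (SD, n = 2) in the mutant. A dimmer Dkk1 probe set that did not pass the filter was also higher in both preparations, by 1.77 in tissue and 1.93 in culture.

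Lef1 measured 4.86 (WT) and 5.92 and 6.14 (mutant) in tissue, with 3.79 (WT) and 3.30 (mutant) in culture. All 3 tissue arrays lay above both culture arrays, and within tissue the mutant was 2.25-fold higher (log2 1.17 ± 0.33; adjusted p = 0.034, limma). In culture the difference had the other sign, -0.49 from 1 array of each genotype. The mean of Lef1 over the 5 arrays stood just above the filter and passed it through mutant tissue, the group where it was high, so its test is no independent support. Its other probe set, below the filter, differed by 1.76 in tissue and -1.26 in culture.

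Tcf7l1, which mostly represses Wnt targets until beta-catenin relieves it, measured 5.59 in WT and 6.41 and 6.68 in mutant tissue, against 7.74 in WT and 7.78 in mutant culture. In tissue the mutant was 1.95-fold higher (log2 0.96 ± 0.27; adjusted p = 0.032, limma), while the cultures differed by 0.04. The second Tcf7l1 probe set above the filter differed by only 0.14 in tissue, so the size of this rise depends on the probe set. The third nuclear factor, Tcf7l2, best known in the thalamus, measured 4.39 (WT) and 4.54 and 5.11 (mutant) in tissue, with 5.30 (WT) and 4.94 (mutant) in culture, and did not pass (0.44; adjusted p = 0.62, limma).

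Fzd2 measured 9.61 in WT and 9.25 and 9.24 in mutant tissue, against 8.69 in WT and 8.87 in mutant culture. The mutant tissue was 1.29-fold lower (log2 -0.37 ± 0.11; adjusted p = 0.036, limma). Its other probe sets differed by -0.42 and -0.46. The mutant culture lay above the WT culture by 0.19, and the interaction of genotype and preparation did not pass (adjusted p = 0.096, limma).

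All 4 tissue calls are sensitive to the test. With the same values but no trend of variance with intensity their adjusted p ran from 0.11 (Dkk1 and Lef1) to 0.23 (Fzd2), and with no filter on dim genes from 0.15 to 0.32, so that none of the 4 passed in either setting.

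**Figure D2:**
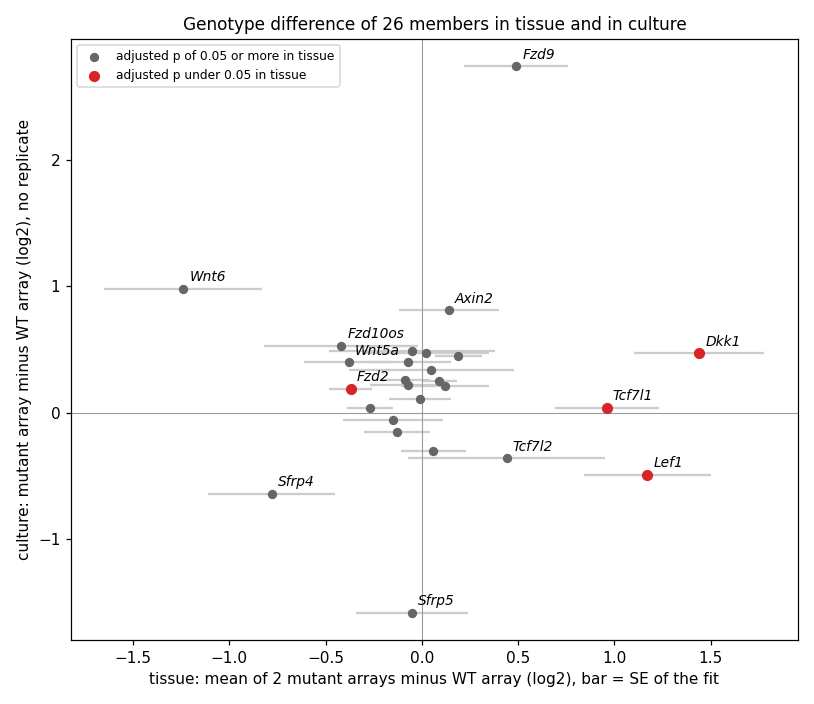
Mutant minus WT difference (log2) of the 26 members that passed the filter, in tissue (x axis; mean of 2 mutant arrays against 1 WT array, bars are limma standard errors) and in culture (y axis; 1 array of each genotype, no error), with the 4 members past the threshold in tissue in red. Dkk1, Lef1 and Tcf7l1 lie right of 0 and Fzd2 left of it, while Fzd9 at 2.74 and Sfrp5 at -1.58 lie farthest from 0 in culture.

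The other 22 members tested did not pass in tissue, and 7 of the 26 had an unadjusted p under 0.05 (limma), against 29% of all genes. Among the 4 ligands tested, Wnt6 measured 5.94 (WT) and 4.72 and 4.67 (mutant) in tissue, with 4.41 (WT) and 5.40 (mutant) in culture (tissue difference -1.24 ± 0.41; adjusted p = 0.061, limma). With the deposited scaling in place of quantile normalization Wnt6 passed in tissue. The 2 genotypes thus stood in opposite order in tissue and culture, and the interaction did not pass (2.23 ± 0.63; adjusted p = 0.084). Wnt7a, the forebrain ligand that also acts on brain vessels, lay between 8.75 and 9.03 in all 5 arrays, and its partner in that role Wnt7b lay between 6.75 and 7.22. Neither passed in any comparison. Wnt5a, the main ligand of the beta-catenin-independent branch, differed by -0.38 ± 0.23 in tissue (adjusted p = 0.32, limma).

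Of the secreted inhibitors, Sfrp4 measured 6.22 in WT and 5.61 and 5.26 in mutant tissue, against 6.25 in WT and 5.61 in mutant culture. Both WT arrays lay above all 3 mutant arrays, but the tissue difference of -0.78 ± 0.33 did not pass (adjusted p = 0.14, limma), nor did that over both preparations (-0.72; adjusted p = 0.30). Sfrp1, which can bind Wnt proteins directly, measured 8.72 (WT) and 8.93 and 8.89 (mutant) in tissue, with 8.34 (WT) and 8.79 (mutant) in culture. The mutant was higher in each preparation but did not pass (0.19 in tissue; adjusted p = 0.32, limma), and its 5 probe sets ranged from -0.34 to 0.96 in tissue. Axin2, a direct target that feeds back on the pathway, measured 6.65 in WT tissue and 7.09 and 6.49 in mutant tissue, so the mutant arrays lay on either side of WT (0.14 ± 0.26; adjusted p = 0.78, limma). Axin1, the constitutive scaffold, differed by -0.01, and by -0.84 on a dimmer probe set. The inhibitor Dkk3 (4.84 to 5.44 over the 5 arrays) and the receptors Fzd4 (4.92 to 6.07), Fzd6 (6.42 to 7.19) and Fzd8 (7.10 to 7.55) passed in no comparison. A second Fzd8 probe set above the filter differed by -0.61 in tissue and by -1.02 between preparations. With the mean of probe sets Fzd8 passed between preparations in limma.

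With tissue and culture fitted together, 0 of the 26 members differed between genotypes by limma, against 1.07% of all genes, and 5 had an unadjusted p under 0.05, against 13% of all. Their median difference was 0.08. Dkk1 had 1.02 ± 0.34 (adjusted p = 0.26) in that fit. For the difference between the genotype effects in culture and in tissue, 0 of 26 passed in limma, against 4.48% of all genes, and 7 had an unadjusted p under 0.05, against 19.6% of all. The median over the 26 was 0.27 with 19 above 0, where over all genes it was 0 with 49.8% above 0. Since Lef1, Dkk1 and Tcf7l1 missed the threshold there, their tissue differences were not shown to differ from those in culture.

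The mutant and WT cultures are 1 array each and were compared without a test. A difference of at least 2-fold was seen in 2 of the 26 members (7.69%), against 3.68% of all genes tested, and 19 of the 26 were above 0, against 51.7% of all. Fzd9, a Frizzled receptor gene with a single probe set, measured 5.81 in WT and 6.23 and 6.38 in mutant tissue, against 2.92 in WT and 5.66 in mutant culture. WT culture alone was low, and the mutant culture stood 6.66-fold above it, with an interaction of 2.24 ± 0.55 that did not pass (adjusted p = 0.052, limma). Sfrp5 measured 5.98 (WT) and 5.99 and 5.87 (mutant) in tissue, with 5.41 (WT) and 3.83 (mutant) in culture, so mutant culture was the lowest array, -1.58 from WT culture. Its second probe set above the filter had the opposite sign in culture, 0.45.

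The comparison of culture with tissue, with genotype in the model, gave the most calls. Of the 26 members tested, 13 passed (50%), 4 higher (15.4%) and 9 lower (34.6%) in culture, by limma with Benjamini-Hochberg adjustment. Over all genes 38.8% passed, 19.6% higher and 19.2% lower. The median member difference was -0.24, with 17 of 26 below 0. Receptors gave 7 of the 13 calls, 2 higher and 5 lower.

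**Figure D3:**
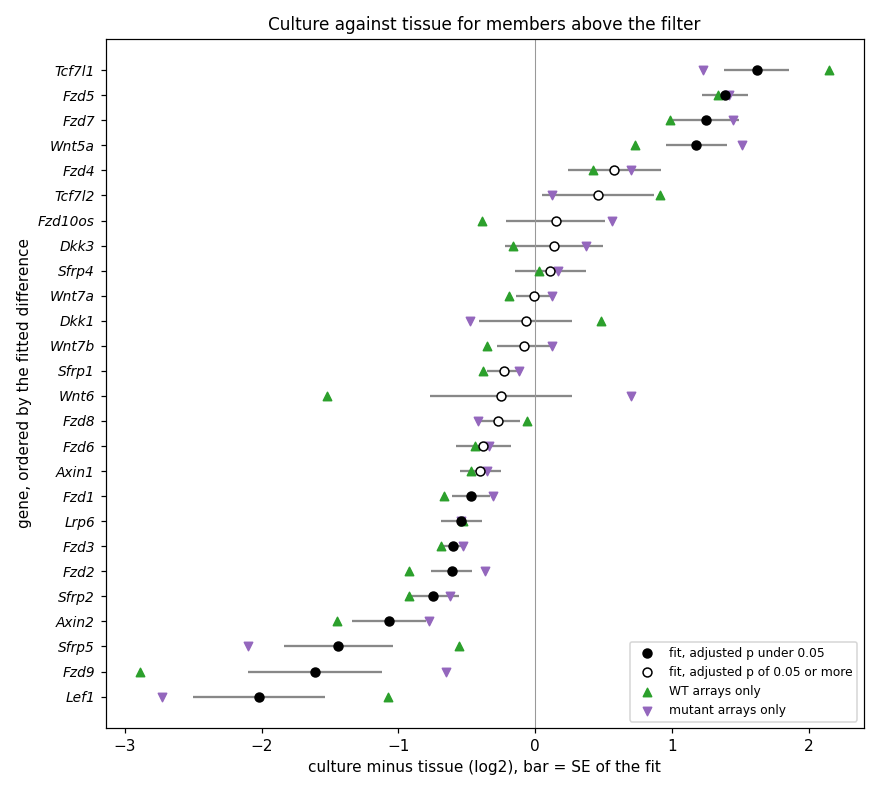
Culture minus tissue difference (log2, x axis) of the 26 members that passed the filter, 1 row per gene. Circles with bars are the estimate and limma standard error from all 5 arrays with genotype as a term, filled where the adjusted p is under 0.05, and triangles are the WT arrays and the mutant arrays alone. Tcf7l1, Fzd5, Fzd7 and Wnt5a lie above 0 and Lef1, at -2.02, lies farthest below it.

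The 4 that rose were Wnt5a, Fzd5, Fzd7 and Tcf7l1. Wnt5a measured 6.78 in WT and 6.44 and 6.35 in mutant tissue, against 7.51 in WT and 7.91 in mutant culture, a 2.26-fold rise (log2 1.18 ± 0.22; adjusted p = 0.0040, limma). A second probe set, also above the filter, differed by 1.61. Fzd5 measured 6.37 (WT) and 6.24 and 6.22 (mutant) in tissue, with 7.71 (WT) and 7.65 (mutant) in culture, a 2.62-fold rise (log2 1.39 ± 0.17; adjusted p = 0.00066).

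The groups did not overlap for either gene, and Fzd5 differed by 1.34 in WT and by 1.42 in mutant. A dim Fzd5 probe set below the filter differed by -2.39 in WT and 2.32 in mutant. Fzd7, which like Fzd5 encodes a Frizzled receptor, measured 5.65 in WT and 5.77 and 5.55 in mutant tissue, against 6.64 in WT and 7.11 in mutant culture (2.38-fold; log2 1.25 ± 0.24; adjusted p = 0.0046, limma). A dim Fzd7 probe set below the filter had the opposite sign (-0.73), with both cultures at the floor. Tcf7l1 was 3.08-fold higher (log2 1.62 ± 0.24; adjusted p = 0.0016), by 2.15 in WT and 1.23 in mutant, and its second probe set differed by 2.46. All 4 stayed past the threshold with 1 mutant tissue array, whichever was removed. With no filter on dim genes Fzd7, Tcf7l1 and Wnt5a missed it (adjusted p = 0.063, 0.072 and 0.084, limma), and with the mean of its probe sets Fzd5 did (0.84; adjusted p = 0.28). With the mean of its probe sets Fzd7 fell below the filter and was not tested.

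The 9 that fell were Lef1, Axin2, Fzd1, Fzd2, Fzd3, Fzd9, Lrp6, Sfrp2 and Sfrp5. Lef1 was 4.06-fold lower in culture (log2 -2.02 ± 0.48; adjusted p = 0.012, limma), a difference that its entry to the test through mutant tissue favours, so it is given as a description. Axin2 measured 5.20 in WT culture and 6.01 in mutant culture, below all 3 tissue arrays, and was 2.09-fold lower (log2 -1.07 ± 0.27; adjusted p = 0.017). A dim Axin2 probe set below the filter had the opposite sign (0.58), with all 3 tissue arrays at the floor. Lef1 and Axin2 are both known targets of canonical signalling, and other targets rose in culture, among them Nkd2 (1.41; adjusted p = 0.013) and Znrf3 (0.60; 0.048), named after their values were seen.

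Sfrp2, a secreted inhibitor with 1 probe set, measured 7.05 (WT) and 7.07 and 6.88 (mutant) in tissue, with 6.13 (WT) and 6.36 (mutant) in culture (-0.75 ± 0.19; adjusted p = 0.017, limma). Sfrp5 fell by 1.44 (± 0.40; adjusted p = 0.023), mostly in the mutant (-2.10, against -0.56 in WT). Fzd9 fell by 1.61 (± 0.49; adjusted p = 0.033), mostly in WT (-2.89, against -0.65 in mutant). The falls of Sfrp5 and Fzd9 thus rested largely on 1 culture array each.

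Among the other receptors, Lrp6 measured 7.65 in WT and 7.52 and 7.50 in mutant tissue, against 7.12 in WT and 6.97 in mutant culture (-0.54 ± 0.15; adjusted p = 0.025, limma), and its second probe set differed by -0.67. Fzd1 measured 8.45 (WT) and 8.39 and 8.32 (mutant) in tissue, with 7.78 (WT) and 8.04 (mutant) in culture (-0.47 ± 0.14; adjusted p = 0.034). Fzd2 was lower by -0.61 ± 0.15 (adjusted p = 0.013), and its other probe sets had -0.19 and -0.34. Fzd3, the receptor known for axon guidance in the forebrain, measured 10.51 in WT and 10.56 and 10.65 in mutant tissue, against 9.83 in WT and 10.07 in mutant culture (-0.60 ± 0.09; adjusted p = 0.0020). Its other 4 probe sets above the filter had 0.27, -0.08, 0.57 and 0.67, so the direction for Fzd3 holds for its brightest probe set and not for the gene.

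Of the 13 calls, 6 stayed past the threshold without either mutant tissue array (Wnt5a, Fzd5, Fzd7, Tcf7l1, Fzd2 and Fzd3). Without replicate 1 there were 7 calls and without replicate 2 there were 8. Lef1 then had a mean below the filter and was not tested. Axin2 and Sfrp2 missed the threshold without replicate 1 (adjusted p = 0.066 and 0.071, limma), Fzd9 without replicate 2 (0.058), and Fzd1, Lrp6 and Sfrp5 without either. The remaining 13 members did not pass, among them Axin1 (-0.40 ± 0.15; adjusted p = 0.064), Fzd4 (0.58; 0.22), Fzd6 (-0.38; 0.18), Fzd8 (-0.27; 0.23), Sfrp1 (-0.23; 0.18) and Dkk1 (-0.07; 0.89).

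The 23 members below the filter were not tested and are described by array. Both culture arrays lay above all 3 tissue arrays in 10 of them (43.5%), and both lay below in 0; over the 7130 genes below the filter the shares were 13.8% and 7.99%. The 10 were Wnt2, Wnt2b, Wnt4, Wnt5b, Wnt8a, Wnt9a, Wnt11, Dkk2, Dkk4 and Rspo1, so that 7 of the 15 dim ligands (46.7%) stood higher in culture. Among the 26 members above the filter 4 lay higher in culture (15.4%), 12 lower (46.2%) and 10 overlapped, against 29.6% higher and 29.2% lower of all genes above it.

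**Figure D4:**
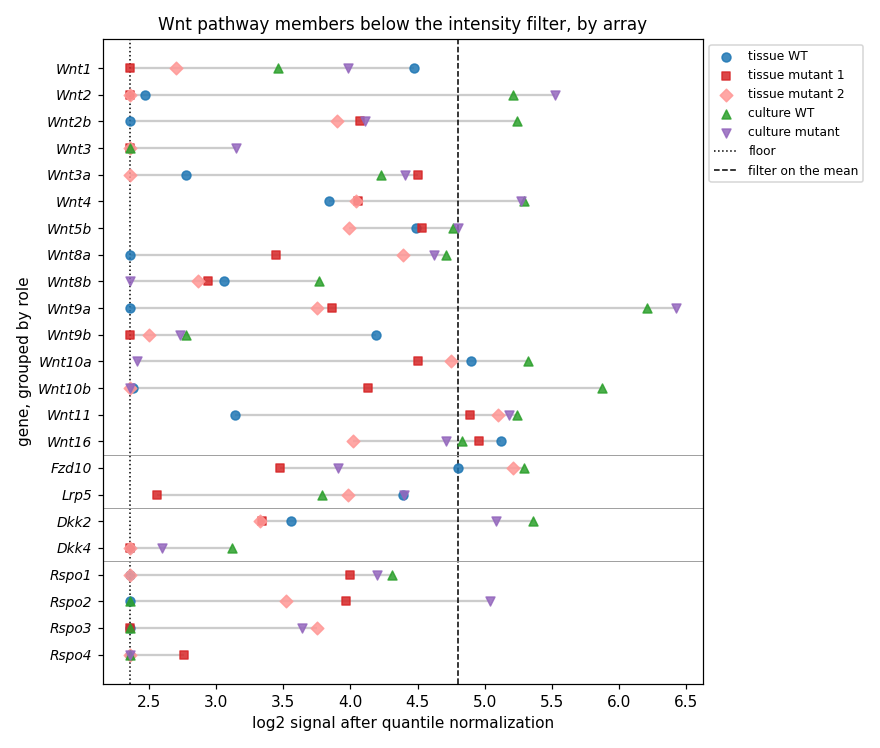
Log2 signal after quantile normalization (x axis) of the 23 members below the filter, 1 row per gene grouped by role, with 1 symbol for each of the 5 arrays; the dotted line is the floor at 2.36 and the dashed line the filter on the mean. Wnt9a and Wnt2 are above 5 in both cultures and below 4 in all tissue arrays, and Rspo4 is at the floor in 4 arrays.

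Wnt9a measured 2.36 (the floor) (WT) and 3.86 and 3.75 (mutant) in tissue, with 6.21 (WT) and 6.42 (mutant) in culture, so WT culture was at least 14.4-fold above WT tissue. A dimmer Wnt9a probe set went the other way in WT, with 3.96 in tissue and the floor in culture. It differed by -0.15 between preparations. Wnt2, a canonical ligand, measured 2.47 in WT tissue, the floor in both mutant tissue arrays, 5.21 in WT culture and 5.52 in mutant culture. The groups are far apart on the probe sets used for both genes. Dkk2, a Dkk family inhibitor, measured 3.56 in WT and 3.34 and 3.33 in mutant tissue, against 5.36 in WT and 5.08 in mutant culture, 3.47-fold apart in WT. Wnt4 measured 3.84 (WT) and 4.06 and 4.04 (mutant) in tissue, with 5.29 (WT) and 5.27 (mutant) in culture. When dim genes were admitted to the test, Wnt9a, Wnt2 and Dkk2 passed in limma and Wnt4 did not. These genes are described because their cultures stood higher, so the calls are no independent support. For Wnt2 the floor also sets the spread between the mutant tissue arrays.

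Several dim ligands stood higher in mutant than in WT tissue. Wnt11 measured 3.14 in WT and 4.89 and 5.10 in mutant tissue, against 5.24 in WT and 5.18 in mutant culture. Wnt2b measured the floor (WT) and 4.07 and 3.90 (mutant) in tissue, with 5.24 (WT) and 4.11 (mutant) in culture. Wnt8a measured the floor in WT and 3.45 and 4.39 in mutant tissue, against 4.71 in WT and 4.62 in mutant culture. For these 3 and the Wnt9a probe set used, WT tissue was the lowest of the 5 arrays. On the dimmer Wnt9a probe set WT tissue was the highest, at 3.96.

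Wnt1 and Wnt9b stood the other way in tissue. Wnt1, the midbrain and dorsal midline ligand, measured 4.47 in WT tissue and 2.36 and 2.70 in mutant tissue, and Wnt9b measured 4.19 in WT tissue and 2.36 and 2.50 in mutant tissue. A dimmer Wnt9b probe set differed by 0.71 in tissue, with 3.78 in mutant replicate 2 and all other arrays at the floor. A tissue difference of at least 2-fold was seen in 8 of the 23 dim members (34.8%), against 23.6% of all dim genes.

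In culture a genotype difference of at least 2-fold was seen in 7 of the 23 (30.4%), against 28.9% of all dim genes. Wnt10b measured 5.87 in WT culture and the floor in mutant culture, at least 11.4-fold apart, and its tissue values were 2.38 in WT and 4.13 and 2.36 in the mutant. Wnt10a measured 5.32 in WT culture and 2.41, just above the floor, in mutant culture, with 4.90 in WT tissue and 4.50 and 4.75 in mutant tissue. Rspo2, an R-spondin, stood the other way, at the floor in WT tissue and WT culture, at 3.97 and 3.52 in mutant tissue and at 5.04 in mutant culture (at least 6.38-fold in culture). On its dimmer probe set the cultures differed by only 0.32, with 3.25 in WT and 3.56 in mutant, so this fold depends on the probe set. Each of these culture differences rests on 1 array per genotype near the lower end of the scale.

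The remaining dim members showed no common order. Wnt3 was at the floor in 4 arrays and at 3.15 in mutant culture, Rspo4 was at the floor in 4 arrays, and Rspo3 was at the floor in 3. Wnt16 lay between 4.02 and 5.12, Wnt3a between the floor and 4.50, and Wnt8b between the floor and 3.77. Lrp5, the co-receptor related to Lrp6, measured 4.39 (WT) and 2.56 and 3.98 (mutant) in tissue, with 3.79 (WT) and 4.40 (mutant) in culture. Fzd10 ranged from 3.48 to 5.29 with both mutant tissue arrays on either side of WT (4.80). Its antisense RNA Fzd10os was above the filter, lay between 4.92 and 5.57 and passed in no comparison in limma.

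The rest of the pathway was read from a list of 65 further Wnt pathway genes, of which 50 were above the filter; like the members, the list was chosen with results of these data known. In tissue 10 rose and 2 fell in the mutant, with a median of 0.12, where 8.59% of all genes rose and 6.7% fell. The beta-catenin scaffold Apc measured 9.89 in WT and 10.89 and 10.81 in mutant tissue, against 10.18 in WT and 10.00 in mutant culture (0.96 ± 0.09; adjusted p = 2.5e-05, limma). Tnik, a kinase that works with Tcf proteins, rose by 1.24 ± 0.20 (adjusted p = 0.0013), and the corepressor Tle4 by 0.87 ± 0.16 (0.0026). The cell-surface glypican Gpc4 rose by 1.03 ± 0.11 (9.0e-05).

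The planar polarity cadherin Celsr2 (0.76) and the ubiquitin ligase subunit Btrc (0.73) also rose, and the 2 that fell were the signal transducer Dvl2 (-0.73) and the corepressor Tle3 (-0.52). Over both preparations only Tnik (1.29 ± 0.16; adjusted p = 0.013, limma) and Tle4 (1.10 ± 0.18; 0.038) of these 50 passed. Apc and Gpc4 passed for the interaction (-1.14 and -1.08), since they rose in mutant tissue and neither rose in mutant culture (-0.18 for Apc). For culture against tissue 10 rose and 17 fell, with a median of -0.10, where 19.6% of all genes rose and 19.2% fell. The Wnt secretion factor Wls rose by 2.11 ± 0.19 (adjusted p = 0.00013) and the membrane inhibitor Apcdd1 fell by 2.15 ± 0.12 (1.6e-05), both named here after their values were seen, as was Tle3.

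Of 19 known Wnt targets, 11 were above the filter, and that list shares Lef1, Dkk1 and Axin2 with the members. In mutant tissue 3 rose (Lef1, Dkk1 and Tnfrsf19, the last by 0.78) and 1 fell (Ccnd1, by -0.36, named after its value was seen). For culture against tissue 4 rose (Bambi, Nkd2, Tnfrsf19 and Znrf3) and 4 fell (Apcdd1, Axin2, Ccnd1 and Lef1), with a median of -0.07. The all-gene shares for both comparisons are those given above for the pathway list.

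Marker sums moved with both comparisons, and their part in the results above was not tested. Thalamus and diencephalon markers, which include tissue known for Lef1 and Tcf7l2, had a summed signal of 247 (WT) and 1510 and 1640 (mutant) in tissue, with 221 (WT) and 404 (mutant) in culture, and 4 of the 6 tested rose in mutant tissue. Choroid plexus and cortical hem markers, from tissues that are Wnt sources, summed to 292 (WT) and 531 and 491 (mutant) in tissue, with 597 (WT) and 804 (mutant) in culture, and 1 of the 5 tested (Otx2) rose in mutant tissue and 2 in culture. Pallial markers summed to 243 (WT) and 437 and 419 (mutant) in tissue, with 210 (WT) and 300 (mutant) in culture. All 6 oligodendrocyte precursor markers tested rose in mutant tissue and all 11 mitotic markers tested fell in it. In culture the mitotic markers summed to 11500 in WT and 12700 in mutant. Between preparations, summed endothelial markers went from 1310 in WT tissue to 280 in WT culture, erythroid markers from 10600 to 27.1, and mural and mesenchymal markers from 1440 to 14500. The last sum was carried by Acta2: without it the list went from 1360 to 654, and of its 8 markers tested 2 rose and 3 fell. In bulk samples fewer cells of a type and less RNA per cell cannot be told apart. MGE markers without Dlx1 and Dlx2 summed to 7200 in WT tissue and 3770 and 3880 in mutant tissue, and the deposited signal of Dlx1 itself was 3280 in WT and 2.80 and 0.921 in mutant tissue, against 603 in WT and 1.26 in mutant culture, which follows the labels.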

How the data were processed

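Each of the 5 arrays was deposited as linear intensities of 45101 probe sets. The software was not given in the sources used here. The values show that the authors scaled every array to a mean near 150, leaving out the top and bottom 2%, and array medians ran from 26.2 to 29.8. Of the probe sets, 34958 carried 1 gene symbol in the platform annotation, 932 several and 9211 none (64 of all were controls). Values were quantile-normalized, floored at their 20th percentile and taken to log2. Tests used limma 3.58.1 in R 4.3.3 (lmFit, eBayes with an intensity trend) and Benjamini-Hochberg adjustment over 11063 genes, at 0.05. The tissue comparison was fitted on the 3 tissue arrays, the preparation and joint genotype comparisons on all 5 without an interaction, and the interaction on 4 groups. The number of arrays limits the precision. The members and lists were chosen with earlier results of these data known. Members past a threshold, 8 fixed members and, of the other pathway and target lists, the 8 largest changes by genotype were to be named, and further members are given to account for all. Alternatives changed the scaling, filter, pseudocount, probe sets, trend, model and arrays.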

Additional observations from a re-analysis of the deposited data

How the results depend on the processing

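The tissue count of 4 members became 0 with no filter on dim genes, with the mean of probe sets per gene and with no intensity trend, 2 (Dkk1 and Tcf7l1) in a model of all 4 groups and 5 (with Wnt6) under the deposited scaling. With the mean of probe sets only 17 members were tested, and Dkk1 and Lef1 were not among them. The preparation count of 13 became 6 with no filter (Dkk2, Fzd3, Fzd5, Lrp6, Wnt2 and Wnt9a), and 7 to 8 when a mutant tissue array was left out. With the mean of probe sets it was 9 (Fzd2, Fzd3 and Fzd5 lost, Axin1 and Fzd8 gained). It was 10 with no intensity trend (without Fzd1, Fzd2 and Fzd9). Under the deposited scaling (with Axin1) and with log2(value + 16) (with Wnt9a) it was 14. The interaction count of 0 became 1 with the deposited scaling (Fzd9, 2.23) and 2 with no filter (Dkk4, -0.52, and Wnt3, 0.79). For Dkk4 and Wnt3 both mutant tissue arrays, the only measured spread in that fit, lay at the floor. Those 2 calls therefore rest on the floor and give no support for an interaction. The culture count of 2 became 1 with log2(value + 16), 3 with the deposited scaling (with Wnt6) and 3 with the mean of probe sets (Fzd1, Fzd5 and Fzd9). The joint genotype count was 0 in limma in all alternatives run. With the mean of probe sets the sign turned for Fzd3 (-0.23) and Wnt5a (0.48) in tissue, for Fzd1 (-0.47), Fzd3 (-0.01) and Wnt5a (0.20) in the joint genotype fit, for Fzd3 (0.33) and Wnt7a (0.07) between preparations, and for Fzd1 (-1.02), Lrp6 (0.04), Sfrp1 (-0.03) and Wnt5a (-0.65) in the interaction. It also turned for Fzd7 in tissue (-0.01) with the deposited scaling and for Wnt7a between preparations (0.12) among mutant arrays. Leaving out a mutant tissue array turned Dkk1 between preparations (0.09), Wnt5a in the joint fit (0.04), and Fzd7 in tissue (-0.09). In tissue it gave -0.16 to 0.44 for Axin2, -0.17 to 0.02 for Sfrp2 and -0.11 to 0.01 for Sfrp5. The cause was not tested. Without a mutant tissue array the tissue and interaction fits have no residual degrees of freedom, so these give values with no test. No paired analysis was possible because the labels give no replicate number that ties arrays across groups. With 1 array in 3 of the 4 groups, precision is limited by the number of arrays, and members near the floor have no order among values at the floor.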
